A study of Mus musculus with 2 samples.

Results

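The genes described are the ligands and receptors of axon guidance: semaphorins, slits, netrins and ephrins, with plexins, roundabouts, DCC, the UNC5 receptors and the Eph receptors. They were chosen by gene symbol alone, as every symbol in any of 9 cell type tables that starts with Plxn, Epha, Ephb, Efna, Efnb, Robo, Ntn or Unc5, or with Sema or Slit and a digit, or equals Dcc, leaving out opposite-strand transcripts. This gave 54 of the 10596 genes listed in the tables, of which 27 encode ligands and 26 encode receptors. The remaining gene, Unc50, shares only its first letters with the UNC5 receptors and encodes a different kind of protein.

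Guidance ligands steer the growing tip of an axon by attracting or repelling it. Slits are secreted and act through roundabout receptors, and netrin-1 attracts through DCC and repels through UNC5 receptors. Semaphorins signal through plexins, the secreted class 3 members mostly with neuropilins as coreceptors. Ephrins sit on the cell surface and bind Eph receptor tyrosine kinases on the neighbouring cell. In the mature hippocampus many of these proteins are known at synapses and dendritic spines, and several also act in blood vessels and in cells of the oligodendrocyte lineage.

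The data compare nuclear RNA from the hippocampi of aged male mice by single-nucleus sequencing of transcript 3′ ends. Mice aged 10 weeks were injected intraperitoneally each day for 10 days with vehicle or with pyridostigmine bromide at 0.7 mg/kg, a cholinesterase inhibitor, and permethrin at 200 mg/kg, a pyrethroid insecticide. They were killed at 19 months, so the values describe a late state and not the exposure itself. Hippocampi of 3 mice were pooled into 1 library per group, called the GWI (Gulf War Illness model) library and the control library, and strain is C57BL/6J in the series description, although the GWI library's own genotype entry is C57/BL7 and the control library's is C57/BL6.

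The depth stated in the labels is at least 25000 reads per nucleus, and how many nuclei each cell type had is not analysed here. With 1 library per group there was no replicate spread, so no test was possible, no difference below is called significant, and every value describes these 2 libraries. All log2 fold changes (GWI over control) and all percentages of nuclei in which a gene was detected come from the authors' deposited tables, 1 per cell type. Each gene listed in a table reached a detection of 10% in 1 or both libraries and a log2 fold change of 0.05 or more in size. A gene that is not listed may have been too rare or too similar between libraries, and these cases cannot be told apart. A gene that reached 10% in only 1 library was listed through that library, so the listing rule favours its direction and rank. Detection is not compared between genes, because it is not corrected for gene length. The 9 tables come from the same pair of libraries, so values in different cell types are not independent of each other. Cell type markers were listed under their own cell type names, from 4 of 6 in excitatory neurons, astrocytes and endothelial cells to 6 of 6 in oligodendrocyte precursor cells (OPCs) and pericytes. Listing needs a difference between the libraries, so these counts do not establish cell identity. The excitatory neuron markers were listed 5 of 6 in inhibitory neurons, in OPCs and in the table named Other. In the table named Other, Camk2a and Grin2b were detected in 100% of the nuclei of both libraries, so its nuclei carried excitatory neuron transcripts.

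Among the 54 genes, 5 were listed in all 9 tables (Efna5, Plxna4, Robo2, Slit3 and Unc5d), 14 in at least 6 tables and 11 in a single table. All 54 are protein-coding in the GENCODE annotation of GRCm38, and 16 span at least 300 kb. Gene length ranged from 6.11 kb for Efnb3 to 1100 kb for Dcc, with a median of 138 kb. On chromosome 16 lie 6 of them, among them Epha6 (59653483 to 60605531), Epha3 (63543534 to 63864175), Robo1 (72308306 to 73046095) and Robo2 (73891839 to 74411825).

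Of the ephrin receptors, Epha3 and Epha5 were higher and Ephb1 lower in neurons of the GWI library, and the stretches just upstream of their starts are shown so that these receptor genes can be compared. The sequences are the 250 bases before the annotated start in RefSeq, build GRCm38.p6, on the minus strand and written 5′ to 3′. They lie at chr16:63864176-63864425 for Epha3, chr5:84417383-84417632 for Epha5 and chr9:102354694-102354943 for Ephb1. Capitals mark the letters GGGCGG or the reverse complement CCGCCC, the core of the GC box bound by Sp-family factors.
Epha3: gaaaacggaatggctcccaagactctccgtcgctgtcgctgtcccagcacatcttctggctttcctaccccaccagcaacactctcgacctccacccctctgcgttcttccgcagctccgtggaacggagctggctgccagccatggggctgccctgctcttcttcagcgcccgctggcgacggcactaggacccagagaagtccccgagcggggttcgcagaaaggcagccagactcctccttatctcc
Epha5: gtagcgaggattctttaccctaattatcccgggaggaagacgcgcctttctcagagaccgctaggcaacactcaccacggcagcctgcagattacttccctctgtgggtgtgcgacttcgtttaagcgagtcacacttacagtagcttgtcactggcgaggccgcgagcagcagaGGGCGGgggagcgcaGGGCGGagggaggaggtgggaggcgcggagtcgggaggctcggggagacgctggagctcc
Ephb1: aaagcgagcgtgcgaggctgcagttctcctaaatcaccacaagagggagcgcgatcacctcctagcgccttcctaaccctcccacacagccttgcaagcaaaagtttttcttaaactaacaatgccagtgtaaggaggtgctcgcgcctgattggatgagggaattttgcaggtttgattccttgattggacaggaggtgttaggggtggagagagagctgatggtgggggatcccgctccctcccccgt
The letters occurred 2 times in the Epha5 stretch and 0 times in those of Epha3 and Ephb1. They occurred in 32.7% of all 32851 such stretches in the RefSeq table, and in 67.8% of the 59 stretches that belonged to 46 of the genes described. CG dinucleotides numbered 16 in Epha3, 20 in Epha5 and 10 in Ephb1, against a median of 6 over all stretches and 16 over those 59. These matches describe the sequence and were not compared with any binding data.

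In the authors' deposited tables, most values of the guidance genes outside blood vessel cells lay within 0.5 of 0 on the log2 scale. More of them were lower than higher in the GWI library. Of 184 values of 50 genes in the 7 tables other than endothelial cells and pericytes, 72 were above 0 and 16 were 0.5 or more away from 0. Over all genes in those tables, between 44.5% and 53.1% were above 0 and between 2.15% and 16.3% were that far from 0, depending on the table. The direction among the members depended on the reference. After subtraction of a gene's median over the remaining tables, 22 of 32 members were higher in excitatory neurons, 18 of 32 in inhibitory neurons and 7 of 11 in microglia. The remaining tables included those of endothelial cells and pericytes. This subtraction was not made for all genes, so these counts have no matching background and were not read as particular to the members. Excitatory neurons had 14 of 36 listed members higher (52.3% of all genes in that table were higher) with a median of -0.11, against 0.06 for all genes. Inhibitory neurons had 14 of 34 higher (50.6% of all genes) with a median of -0.07 against 0.05. The median in each of these tables lay below that of all listed genes.

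Astrocytes had the smallest share higher among the 9 tables, 6 of 26 (48.6% of all genes), with a median of -0.14 against -0.06. OPCs had 9 of 24 higher (50.7% of all genes) with a median of -0.11 against 0.05, oligodendrocytes 7 of 15 (44.5%) with -0.12 against -0.07, and microglia 4 of 12 (46.8%) with -0.08 against -0.06. In the table named Other, 18 of 37 were higher (53.1% of all genes) with a median of -0.06 against 0.06. Endothelial cells had 14 of 24 higher (48.4% of all genes) with a median of 0.24, and pericytes 5 of 16 (47.2%) with a median of -0.76.

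A log2 fold change of 0.5 or more in size, in either direction, was seen for 1 member in excitatory neurons (2.15% of all genes), 2 in inhibitory neurons (2.56%), 1 in oligodendrocytes (3.26%), 1 in astrocytes (2.34%) and 1 in microglia (5.25%). OPCs had 5 of 24 such members (16.3% of all genes) and the table named Other 5 of 37 (7.17%). With so few members past that size, these counts were not read as differing from the background. In endothelial cells and pericytes, 9 of 24 and 13 of 16 members passed that size, where 46.3% and 52.4% of all genes did so, so a fold of this size was common there.

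**Figure D1:**
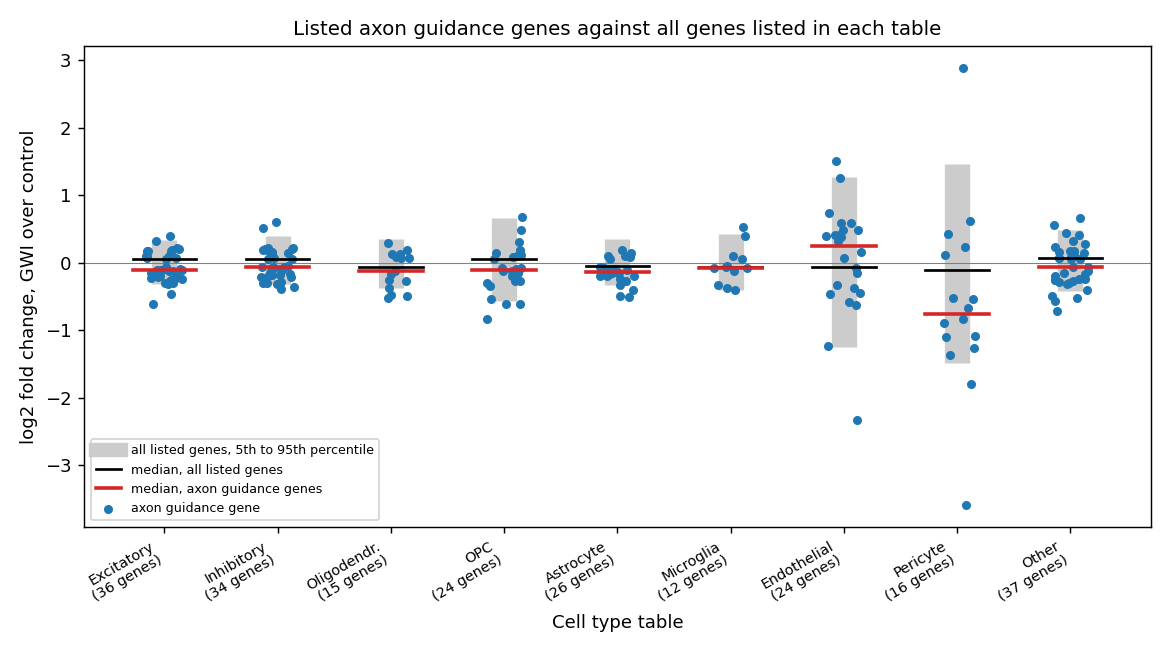
Log2 fold change of GWI over control (vertical axis) for each listed guidance gene (blue points) in the 9 cell type tables, with the median of these genes (red line), the median of all listed genes (black line) and the 5th to 95th percentile of all listed genes (grey bar). The red line lies below the black line in excitatory neurons (-0.11 against 0.06) and above it in endothelial cells (0.24 against -0.07), and the spread is widest in pericytes.

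Gene length moved with these differences over all listed genes, and among the members in some tables only. Over all listed genes in excitatory neurons, 32.4% of genes of at least 300 kb were higher in the GWI library, against 70.2% of genes under 20 kb. The gap was smaller in endothelial cells, at 41.2% against 47.9%. Among the guidance genes of at least 300 kb, 8 of 15 were higher in excitatory neurons, with a median of 0.08, where all genes of that length had a median of -0.11. In inhibitory neurons 8 of 15 such members were higher, with a median of 0.05 against -0.09 for all genes of that length, of which 35.3% were higher. Of the shorter members, 6 of 21 were higher in excitatory and 6 of 19 in inhibitory neurons, where 53.4% and 51.7% of all genes of that length were higher. In astrocytes, 6 of 14 members of at least 300 kb and 0 of 12 shorter members were higher, where 23.9% and 50.2% of all genes of those lengths were higher. In the 5 tables that follow, the share higher was smaller among long than among shorter genes, for the members and for all genes. Oligodendrocytes had 1 of 7 long and 6 of 8 shorter members higher (13% and 49.7% of all genes), OPCs 3 of 13 and 6 of 11 (31.3% and 52.7%), and microglia 2 of 8 and 2 of 4 (24.8% and 49.8%). Endothelial cells had 4 of 11 long and 10 of 13 shorter members higher (41.2% and 49% of all genes), and pericytes 3 of 12 and 2 of 4 (31.3% and 49.5%). The table named Other showed this for all genes (40.5% and 53.5%) but not for the members, with 7 of 14 long and 11 of 23 shorter ones higher. The part of gene length in these values was not tested.

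**Figure D2:**
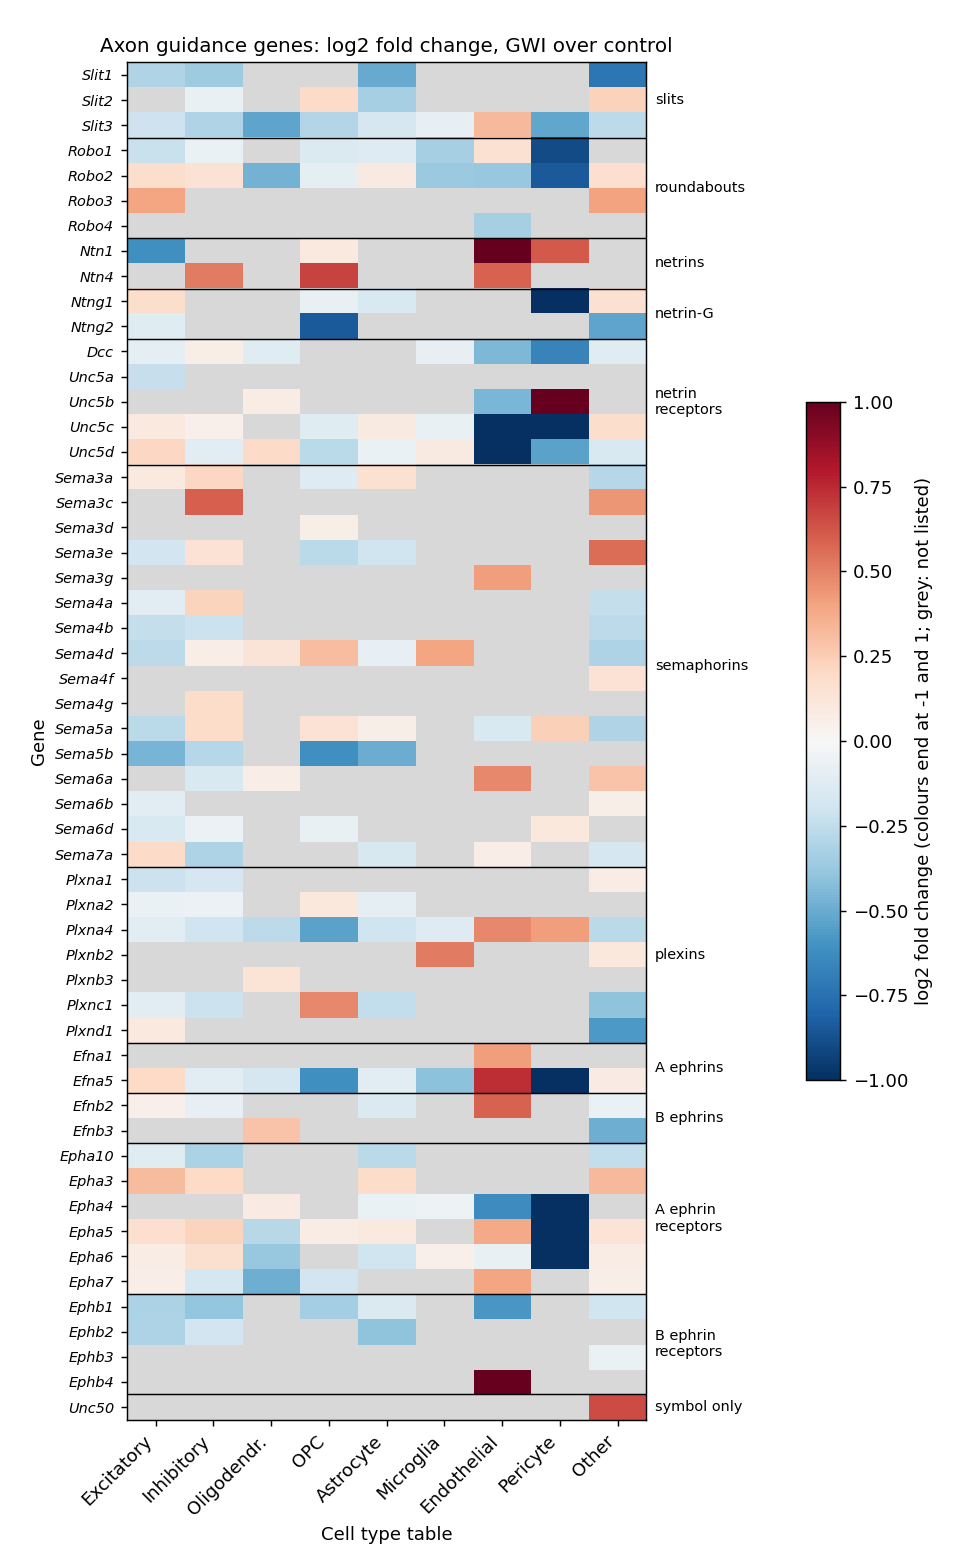
Log2 fold change of GWI over control for all 54 genes (rows, grouped by family) in the 9 cell type tables (columns), red for higher and blue for lower in the GWI library, grey where a gene is not listed. Slit1, Sema5b and Ephb1 are blue wherever they are listed, Epha3 is red wherever it is listed, and the endothelial and pericyte columns hold the darkest colours, down to -3.59 for Ntng1.

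Slits, the secreted ligands of roundabouts, were lower in most cell types of the GWI library. In the authors' deposited tables Slit1 was lower in each of the 4 tables that list it. It was detected in 33.3% of GWI and 35.4% of control excitatory nuclei, a log2 fold change of -0.30, and in 16.4% against 21.8% of inhibitory nuclei, a change of -0.36. In astrocytes Slit1 was at 24.7% against 29.3% with -0.51, and in the table named Other at 21.5% against 31.4% with -0.72. The last was the lowest value of any guidance gene in that table, and the detection was lower in the GWI library in all 4.

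Slit3, listed in 9 tables, was lower in 8 of them and had a log2 fold change of 0.32 in endothelial cells. Its values were -0.21 in excitatory neurons, -0.17 in astrocytes, -0.30 in OPCs, -0.52 in oligodendrocytes, -0.30 in inhibitory neurons, -0.08 in microglia, -0.52 in pericytes and -0.26 in the table named Other. Detection of Slit3 was equal in excitatory neurons, at 88.5% in both libraries, and was lower in inhibitory neurons, at 62.1% against 68.2%. Slit3 in oligodendrocytes, with detection of 11% against 14.9%, was the single member of that table past 0.5. Slit2 went both ways, with -0.34 in astrocytes and -0.07 in inhibitory neurons but 0.19 in OPCs and 0.23 in the table named Other.

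The roundabout receptors did not move together. Robo1 was lower in excitatory neurons (-0.23, detected in 86.7% of GWI against 88.8% of control nuclei), inhibitory neurons (-0.07), OPCs (-0.15), astrocytes (-0.13) and microglia (-0.34) in the authors' deposited tables. Robo2, its neighbour on chromosome 16, was higher in excitatory neurons (0.17, 92.9% against 90.7%), inhibitory neurons (0.15, 90.9% against 90.5%), astrocytes (0.09, 77.2% against 74.6%) and the table named Other (0.17). It was lower in oligodendrocytes (-0.47, 16.7% against 21.1%), OPCs (-0.10) and microglia (-0.37, 18.6% against 21.7%). Both receptors were therefore lower in microglia and in OPCs, while in neurons and astrocytes they had opposite signs. Robo3 had the highest value of the guidance genes in excitatory neurons, 0.39, with detection of 12.2% against 8.5%, and stood at 0.40 in the table named Other, at 27.4% against 21.7%. Robo4, a roundabout of blood vessels, was listed in endothelial cells alone, with -0.33 and detection in 12.6% against 14.7%.

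Netrins were listed in few tables. Ntn1, which encodes netrin-1, was the single member past 0.5 in excitatory neurons, with -0.61 and detection in 8.7% of GWI against 12.1% of control nuclei in the authors' deposited table. It stood at 0.10 in OPCs, with detection of 56.6% against 53.8%. Ntn4, a netrin of basement membranes, was higher in the 3 tables that list it, by 0.52 in inhibitory neurons (24.9% against 19.5%), 0.67 in OPCs (19.0% against 10.9%) and 0.59 in endothelial cells (13.6% against 12.6%). Its value in OPCs was the highest of the guidance genes there.

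Netrin-G proteins are anchored in the membrane and bind partners at synapses rather than DCC. Ntng1 was at 0.17 in excitatory neurons, detected in 47.2% against 43.7% of nuclei, and at 0.15 in the table named Other. Ntng2 was lower where it was listed, by -0.12 in excitatory neurons, -0.84 in OPCs and -0.53 in the table named Other. In OPCs it was the lowest guidance gene and was detected in 7.2% against 10.1% of nuclei, reaching 10% in the control library alone.

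Netrin receptors lay between -0.23 and 0.21 in neurons. Dcc, the attractive receptor, stood at -0.09 in excitatory neurons and 0.06 in inhibitory ones, with detection in 89.1% against 90.2% and 74.8% against 77.3% of nuclei. Unc5c was at 0.09 and 0.05 in the same tables and at 0.18 in the table named Other, where it was detected in 99.3% against 97.6%. Unc5d was higher in excitatory neurons by 0.21, at 83.2% against 80.1%, and lower in inhibitory neurons by -0.12, at 59.8% against 63.1%. In OPCs Unc5c, detected in 93.8% against 95.4% of nuclei, was at -0.12 and Unc5d, at 26.3% against 29.8%, was at -0.27. Unc5a was listed in excitatory neurons alone, at -0.23, and Unc50 in the table named Other alone, at 0.65 with detection in 12.6% against 8.1%.

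Dcc was at -0.12 in oligodendrocytes, -0.09 in microglia and -0.12 in the table named Other. Unc5c was at 0.09 in astrocytes and -0.07 in microglia. Unc5d was at 0.19 in oligodendrocytes, -0.07 in astrocytes, 0.09 in microglia and -0.15 in the table named Other, and Unc5b stood at 0.07 in oligodendrocytes. These receptors thus stayed within 0.30 of 0 in every table outside blood vessel cells.

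Among the ephrin receptors of the authors' deposited tables, 4 of 5 A-type genes were higher in excitatory neurons, where 52.3% of all genes were higher. In inhibitory neurons 3 of 5 were higher, where 50.6% of all genes were. The 2 listed B-type genes, Ephb1 and Ephb2, were lower in each of these tables. With so few genes, these counts were not read as differing from the share of all genes. Epha3 was higher in all 4 tables that list it. It was detected in 43.2% of GWI against 36.1% of control excitatory nuclei (0.32), 56.3% against 51.5% of inhibitory nuclei (0.20), 19.5% against 17.6% of astrocyte nuclei (0.18) and 47.7% against 38.6% of nuclei in the table named Other (0.32). In astrocytes 0.18 was the highest value of any guidance gene.

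Epha5 was higher in excitatory neurons (0.17, 89.5% against 87.3%), inhibitory neurons (0.22, 87.1% against 85.7%), OPCs (0.08), astrocytes (0.10, 67.3% against 63.4%), endothelial cells (0.38) and the table named Other (0.13). It was lower in oligodendrocytes (-0.27, 15.3% against 17.3%) and pericytes (-1.37). Epha6 stood at 0.08 in excitatory neurons and 0.16 in inhibitory ones but at -0.20 in astrocytes and -0.38 in oligodendrocytes. Epha7 was at 0.07 in excitatory neurons, -0.18 in inhibitory neurons, -0.19 in OPCs, 0.06 in the table named Other and -0.49 in oligodendrocytes. Epha10, whose protein lacks kinase activity, was lower in its 4 tables, from -0.12 in excitatory to -0.32 in inhibitory neurons, where detection was 31.3% against 35.4%. Epha4, which binds ephrins of both types, was at 0.08 in oligodendrocytes, -0.06 in astrocytes and -0.05 in microglia and was not listed in the neuron tables.

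Ephb1 was lower in all 6 tables that list it. In excitatory neurons it was detected in 59.2% of GWI against 62.2% of control nuclei (-0.32), in inhibitory neurons in 26.5% against 31.8% (-0.39) and in OPCs in 23.1% against 27.7% (-0.34). The value in inhibitory neurons was the lowest of the guidance genes there. It was at -0.20 in the table named Other, with 82.8% against 87.3%, and at -0.15 in astrocytes, although detection there was 71.5% in GWI against 68.4% in control nuclei. Ephb2 was lower in its 3 tables, by -0.31 in excitatory neurons, -0.19 in inhibitory neurons and -0.40 in astrocytes, and Ephb3 was at -0.06 in the table named Other.

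Of the ephrin ligands, Efna5 was higher in excitatory neurons by 0.20, detected in 78.3% against 74.3% of nuclei, and was at 0.08 in the table named Other. It was lower in inhibitory neurons (-0.12), oligodendrocytes (-0.17), OPCs (-0.61, 16.1% against 20.2%), astrocytes (-0.12) and microglia (-0.41, 10.6% against 11.2%). Efnb2 lay between -0.14 in astrocytes and 0.05 in excitatory neurons outside blood vessel cells. Efnb3 was at 0.29 in oligodendrocytes, detected in 19.9% against 15.8% of nuclei and the highest guidance gene there, and at -0.49 in the table named Other, at 10.3% against 15.1%.

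**Figure D3:**
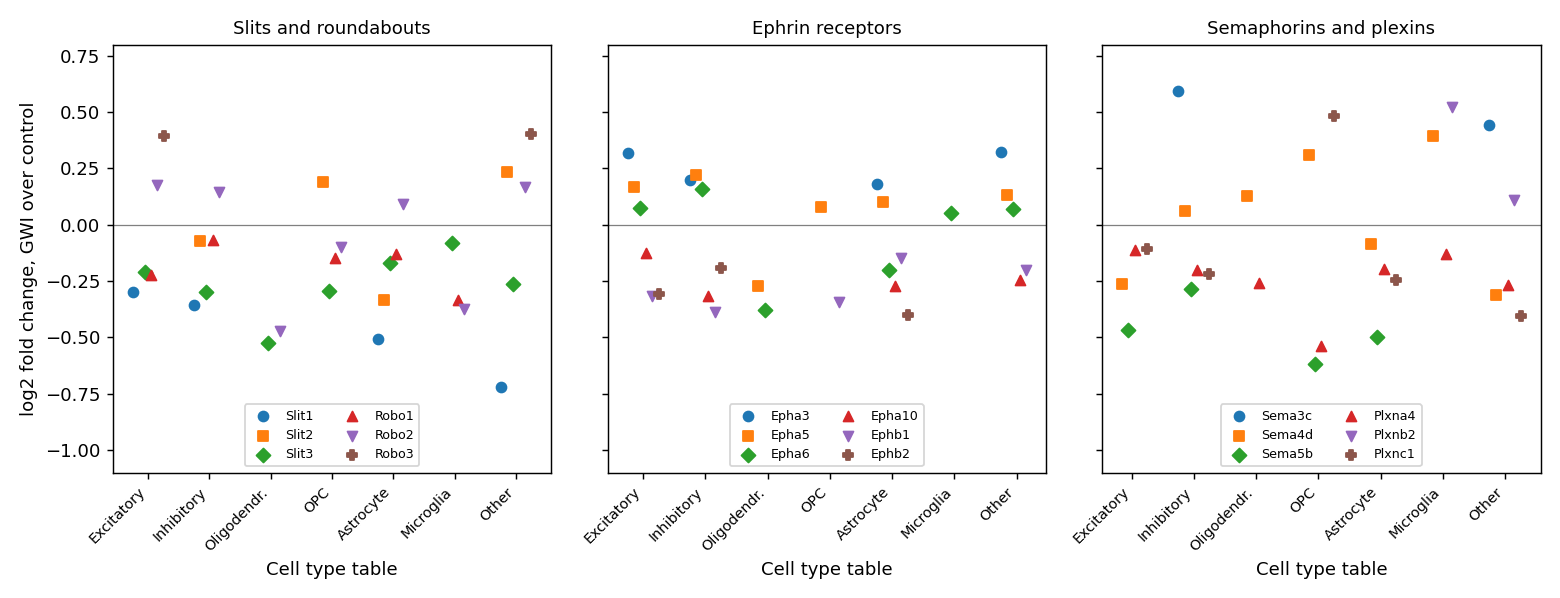
Log2 fold change of GWI over control (vertical axis) for selected slits and roundabouts, ephrin receptors, and semaphorins and plexins in 7 cell type tables (horizontal axis), 1 symbol per gene, with no symbol where a gene is not listed. Slit1 lies below 0 in its 4 tables, Epha3 lies above 0 and Ephb1 below 0 wherever they are shown, and Sema4d runs from -0.31 in the table named Other to 0.39 in microglia.

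In excitatory neurons of the authors' deposited tables, semaphorins were mostly lower, with 2 of 10 higher (52.3% of all genes) and a median of -0.17. They were split in inhibitory neurons, with 7 of 12 higher (50.6% of all genes) and a median of 0.10. Sema3c, a secreted semaphorin, had the highest value in inhibitory neurons, 0.60, with detection in 20.4% of GWI against 15.0% of control nuclei, and was at 0.44 in the table named Other. Sema5b, a transmembrane semaphorin, was lower in each of its 4 tables: excitatory neurons (-0.47, 14.1% against 17.1%), inhibitory neurons (-0.29, 12% against 14.7%), OPCs (-0.62, 40.2% against 47.5%) and astrocytes (-0.50, 17.0% against 20.2%). Its relative Sema5a was at -0.27 in excitatory neurons but 0.18 in inhibitory neurons and 0.15 in OPCs, with detection of 54.4% against 50%.

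Sema4d, a ligand of B-type plexins, differed in sign between cell types. It was higher in microglia by 0.39, detected in 27.4% against 19.7% of nuclei, in OPCs by 0.31 and in oligodendrocytes by 0.13, at 19.4% against 17.2%. In excitatory neurons it was at -0.26, in astrocytes at -0.08 and in the table named Other at -0.31, and in inhibitory neurons at 0.06. Sema3e stood at -0.19 in excitatory neurons and 0.14 in inhibitory ones, -0.27 in OPCs, -0.20 in astrocytes and 0.56 in the table named Other, where it was detected in 48.0% against 41.9%. Sema3a lay between -0.29 in the table named Other and 0.20 in inhibitory neurons, and Sema7a between -0.31 in inhibitory and 0.19 in excitatory neurons.

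Sema6a, detected in 54.0% against 50.2% of oligodendrocyte nuclei, was at 0.06 there, -0.15 in inhibitory neurons and 0.28 in the table named Other. Sema6d, detected in 92.5% against 92.0% of OPC nuclei, was at -0.08 there and at -0.15 in excitatory neurons. Sema3d was listed in OPCs alone, at 0.06 with 69.2% against 65.1%. Sema4a stood at -0.11 in excitatory neurons and 0.22 in inhibitory ones, Sema4b between -0.26 and -0.21 in its 3 tables and Sema6b at -0.10 in excitatory neurons. Sema4g was at 0.18 in inhibitory neurons and Sema4f at 0.15 in the table named Other.

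Of the listed plexins, 4 of 5 in excitatory neurons, all 4 in inhibitory neurons, all 3 in astrocytes and 3 of 5 in the table named Other were lower. In OPCs 2 of 3 were higher, and in oligodendrocytes and microglia 1 of 2 was higher. Over all genes, between 44.5% and 53.1% were higher in these tables. With so few plexins per table, their counts were not read as differing from that share. Plxna4, a receptor for class 3 semaphorins together with neuropilins, was lower in all 7 tables outside blood vessel cells. Its values were -0.54 in OPCs, -0.26 in oligodendrocytes, -0.20 in astrocytes, -0.20 in inhibitory neurons, -0.11 in excitatory neurons, -0.13 in microglia and -0.27 in the table named Other. Detection of Plxna4 was lower in OPCs, at 28.7% against 36.6%, but slightly higher in the GWI library in excitatory neurons, at 86.6% against 84.8%, and in microglia, at 59.2% against 57.8%.

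Plxnc1, the receptor of Sema7a, was lower in excitatory neurons (-0.11), inhibitory neurons (-0.22), astrocytes (-0.25) and the table named Other (-0.40) and higher in OPCs by 0.48, at 28.4% against 20.6%. Plxnb2, a receptor of class 4 semaphorins, was the single member past 0.5 in microglia, with 0.52 and detection in 16.6% against 11.2% of nuclei. Plxnd1, a receptor of Sema3e, was at 0.10 in excitatory neurons and -0.57 in the table named Other. Plxna2 stayed between -0.09 and 0.11, Plxna1 was at -0.21 in excitatory neurons and -0.16 in inhibitory neurons, and Plxnb3 was at 0.13 in oligodendrocytes.

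Microglia, the macrophages of brain tissue, thus had Sema4d and Plxnb2 at the top of the 12 guidance genes listed there and Efna5, Robo2 and Robo1 at the bottom. Each of those lowest 3 was detected in at most 25.5% of microglial nuclei. The excitatory neuron markers listed in that table, Camk2a and Grin2b, were lower as well, at -0.23 and -0.22, and summed to 61.0 percentage points of detection in the GWI library against 64.8 in the control library. Of 6 microglial markers 5 were listed and all 5 were higher, with a median of 0.54. The part of neuronal RNA in the lower values was not tested.

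Neuronal markers were also listed in the other glial tables. Of 6 excitatory neuron markers, 4 were listed in astrocytes, 3 in oligodendrocytes and 5 in OPCs, of which 0, 1 and 2 were higher in the GWI library. Their summed detection was 197.5 percentage points in the GWI library against 200.7 in the control library in astrocytes, 82.4 against 88.3 in oligodendrocytes and 123.6 against 134.4 in OPCs. The lower values of Epha6, Epha7, Robo2 and Slit3 in oligodendrocytes, all detected in at most 21.1% of nuclei, stood beside -0.49 for Camk2a, -0.33 for Grin2b and 0.14 for Prox1 there. In excitatory neurons the 5 listed inhibitory neuron markers of 7 were all lower, with a summed detection of 161.2 against 186.7 percentage points, and in inhibitory neurons 6 of 7 were listed and all 6 were higher. Markers that differed by less than 0.05 could not be listed, so the listed ones do not show how many markers stayed alike. The part of these markers in the values of the guidance genes was not tested.

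**Figure D4:**
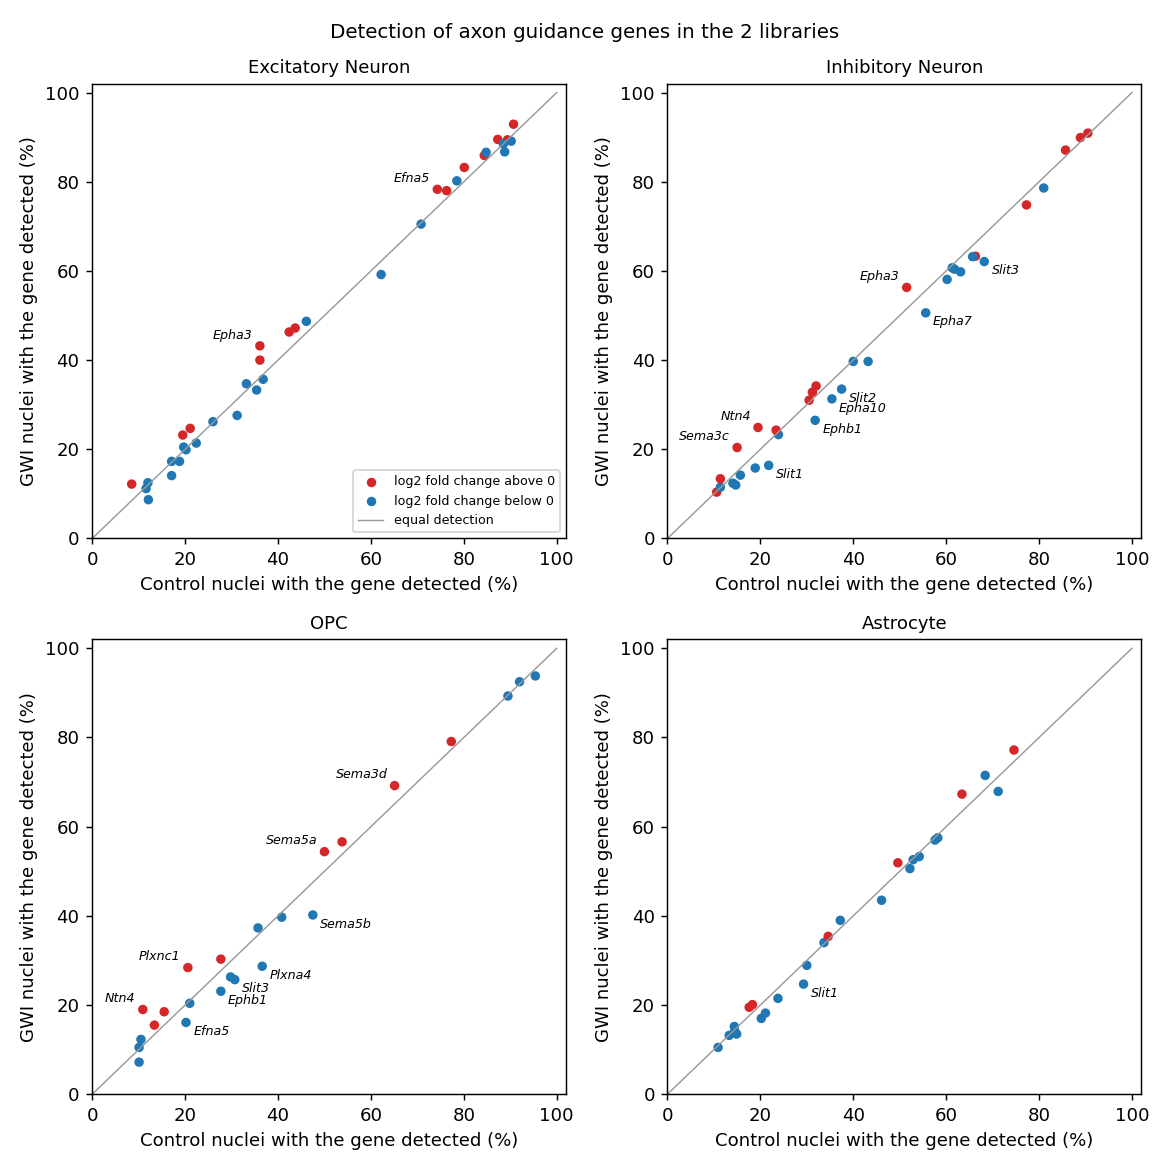
Percentage of GWI nuclei (vertical axis) against percentage of control nuclei (horizontal axis) in which each listed guidance gene was detected, in excitatory neurons, inhibitory neurons, OPCs and astrocytes, with genes that differ by at least 4 percentage points named, red for a log2 fold change above 0 and blue for one below 0. Points lie close to the line of equal detection, and the largest gaps are those of Ntn4 (19.0% against 10.9%), Plxnc1 (28.4% against 20.6%) and Plxna4 (28.7% against 36.6%) in OPCs.

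Detection and log2 fold change did not always share a sign. Of 224 values in the 9 tables, 34 had a log2 fold change on one side of 0 and a detection difference on the other. This was not counted over all listed genes, so whether 34 of 224 is usual for these tables is unknown. Over all listed genes of excitatory neurons the median detection difference was 2.0 percentage points in favour of the GWI library, and for the guidance genes it was 0.65. In inhibitory neurons it was 0.1 for all genes and -1.45 for the guidance genes, and in astrocytes 1.2 and -0.4.

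In endothelial cells of the authors' deposited table, netrin receptors were lower and 9 of 10 listed ligands higher in the GWI library, where 48.4% of all genes were higher. For 3 of those 9 the detection was lower in the GWI library, at 9.7% against 11.6% for Efna1, 43.7% against 48.4% for Sema6a and 35% against 37.9% for Sema7a. All 4 listed netrin receptors were lower, Unc5c at -2.34 (10.7% of GWI against 26.3% of control nuclei), Unc5d at -1.23, Unc5b at -0.46 and Dcc at -0.45. Ntn1 was higher by 1.26, at 24.3% against 15.8%, and Ephb4, the receptor that marks veins, by 1.5, at 16.5% against 8.4%. Ephb4 reached 10% in the GWI library alone. Its ligand gene Efnb2, which marks arteries, was at 0.59, at 19.4% against 13.7%. Efna5 was at 0.74, Efna1 and Sema3g at 0.41 each, Sema6a at 0.48 and Plxna4 at 0.48. Epha7 was at 0.40, whereas Epha4 was at -0.63, Ephb1 at -0.58 and Robo2 at -0.38. The log2 fold changes of all genes in this table had a standard deviation of 0.80 across genes, against 0.21 in excitatory neurons. All 5 listed pericyte markers were lower in this table, with a summed detection of 106.8 against 160.0 percentage points, and their part was not tested.

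In pericytes, 11 of 16 listed guidance genes were lower in the authors' deposited table, each by more than 0.5. Of all 2613 genes listed there, 736 were lower by 0.5 or more. Ntng1 was at -3.59, detected in 1.3% of GWI against 11.1% of control nuclei, Efna5 at -1.79 (5.1% against 19.0%), Epha5 at -1.37, Unc5c at -1.27, Epha6 at -1.11 and Epha4 at -1.09. Robo1 and Robo2 were at -0.89 and -0.84, Dcc at -0.67, Unc5d at -0.54 and Slit3 at -0.52. Unc5b was higher by 2.89, at 12.8% against 1.6%, Ntn1 by 0.62, at 26.9% against 20.6%, and Plxna4 by 0.42. Sema5a and Sema6d, detected in 35.9% and 44.9% of GWI nuclei, were at 0.24 and 0.11. Ntng1, Efna5, Epha4 and Unc5c reached 10% in the control library alone, and Unc5b and Plxna4 in the GWI library alone. Counts of nuclei are not analysed here, so the precision of these folds is unknown. The standard deviation across all genes was 0.96 in this table, and all genes of at least 300 kb had a median of -0.30, against -0.76 for the 12 guidance genes of that length.

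Coreceptors and intracellular effectors of the same pathways, a list of 71 genes such as neuropilins, collapsin response mediators and slit-robo GTPase-activating proteins, were also more often lower than higher. In excitatory neurons 15 of 49 listed were higher, with a median of -0.12, and in inhibitory neurons 15 of 50, also with -0.12, where 52.3% and 50.6% of all genes were higher. Astrocytes had 7 of 40 higher with a median of -0.13 (48.6% of all genes higher), oligodendrocytes 6 of 24 with -0.13 (44.5%) and OPCs 16 of 42 with -0.11 (50.7%). In microglia 8 of 25 were higher with -0.12 (46.8% of all genes), and in the table named Other 19 of 55 with -0.10 (53.1%). Endothelial cells had 16 of 38 higher with a median of -0.13 (48.4% of all genes), and pericytes 9 of 32 with -0.39 (47.2%).

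The lowest of these in excitatory neurons were Dpysl5 (-0.73), a collapsin response mediator, Chn2 (-0.54), a Rac GTPase-activating protein gene, and Srgap1 (-0.48), which acts downstream of roundabouts and was detected in 37.2% against 45.1% of nuclei. Srgap1 was also at -0.35 in inhibitory neurons and -0.63 in the table named Other. The neuropilin gene Nrp2 was the lowest in inhibitory neurons at -0.45, followed by Arhgef11 (-0.37), and was at -0.36 in excitatory neurons. The highest were Lrrc4 (0.36, 42.0% against 32.1%), which encodes a netrin-G ligand family protein, Cdk5 (0.28) and Flrt2 (0.27, 80.2% against 74.1%) in excitatory neurons, and Flrt3 (0.48), Sdc3 (0.27) and Lrrc4 (0.26) in inhibitory neurons.

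Among glia, OPCs had Nfatc3 (0.70), Rhoa (0.66) and Sdc3 (0.48) as the highest of the list, and L1cam (-0.66) and Cfl1 (-0.60) as the lowest. Astrocytes had Lrrc4 (0.26), Nck1 (0.17) and Rasa1 (0.13) at the top and Dpysl5 (-0.58), Tiam1 (-0.43) and Flrt1 (-0.37) at the bottom. Trio (-0.43), Dscam (-0.38) and Kalrn (-0.35) were lowest and Nfatc3 (0.21), Pak1 (0.16) and Neo1 (0.09) highest in oligodendrocytes. In microglia Rock1 (0.21), Pak1 (0.18) and Nrp1 (0.14) were highest and Arhgef11 (-0.59), Chn1 (-0.54) and Ablim1 (-0.41) lowest.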

How the data were processed

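Nuclei were loaded on a 10x Genomics controller for 3′ capture (v3.1), per the labels' protocols. The submitters' processing notes name Cell Ranger, without a version, and the genome build GRCm38 (mm10). The authors deposited log2 fold changes of the GWI over the control library and, as a fraction, the share of nuclei with each gene detected, printed here as a percentage. No source used here gives their scaling, cell grouping or doublet handling. The comparison is labelled with GWI before control, so the first group was read as GWI, and every direction rests on that reading. That label has PBS where the sample labels have vehicle. The deposited p-values were not used, because 1 library per group leaves no replicates.

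Members and lists were chosen with earlier results of these data known. Here members were counted and their medians set beside all listed genes. The size rule was an absolute log2 fold change of 0.5. Genes named were the 4 highest and 4 lowest members of each table, those past the size rule, listed in at least 6 tables or detected in at least 50% of nuclei, and the 3 highest and 3 lowest pathway genes in 6 tables, of which 1 is not reported here. Members outside this rule, and pathway genes in further tables, were named after their values were seen. Gene lengths are those of GENCODE M21 genes (97.2% of symbols had 1 entry), and the length classes of 20 and 300 kb were chosen after seeing the data. Upstream sequences are from RefSeq. Tables were read with pandas 2.3.3 under Python 3.11.15. Intervals came from scipy 1.17.1, medians from numpy 2.4.6 and plots from matplotlib 3.10.9.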

Additional observations from a re-analysis of the deposited data

Results flagged for a closer look

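Ntn1 and Efna5 each differed by 0.5 or more on the log2 scale in opposite directions in different cell types, and the difference between cell types was not tested. Ntn1 was at -0.61 in excitatory neurons, 1.26 in endothelial cells and 0.62 in pericytes. Efna5 was at -0.61 in OPCs, 0.74 in endothelial cells and -1.79 in pericytes.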

How the results depend on the processing

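No test was possible with 1 library per group, and no library could be left out. No paired analysis was possible because each group has 1 library. Of 94 recalculated values, 55 stayed close to the value reported. Close means a share inside its exact 95% binomial interval (counting error only), a median within 0.05 or a count within 1.5 times. That interval treats genes as independent, which genes from 1 pair of libraries are not, and it is wide where members are few. In microglia it ran from 9.92% to 65.1% for 12 members, so a share could pass 50% and still be called close. Centring on the median of each table put the members' medians at -0.16 in OPCs, -0.052 in oligodendrocytes, -0.089 in astrocytes, -0.014 in microglia, -0.12 in inhibitory neurons, -0.17 in excitatory neurons, 0.31 in endothelial cells, -0.65 in pericytes and -0.13 in the table named Other. With centring, members past 0.5 numbered 0 in oligodendrocytes, 0 in astrocytes, 1 in inhibitory neurons and 2 in excitatory neurons. With the gene's median over the remaining tables subtracted, 68.8% of 32 members were higher in excitatory neurons, against 38.9% as deposited, and the cause was not tested. The share also passed to the other side of 50% in inhibitory neurons (56.2% against 41.2%) and microglia (63.6% against 33.3%). It came to 50% in endothelial cells (58.3% as deposited) and in the table named Other (48.6%). The subtraction was made for the members only, so these shares have no matching share of all genes.

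A detection minimum of 25% left few members in some tables. The median then turned to 0.065 in oligodendrocytes (3 members) and 0.17 in pericytes (4 members, 75% higher), and was -0.13 in microglia and 0.064 in endothelial cells. Members past 0.5 then numbered 0 in microglia, oligodendrocytes, inhibitory neurons and excitatory neurons, 2 in OPCs, 4 in endothelial cells, 2 in pericytes and 3 in the table named Other. With a size rule of 1 in place of 0.5, the counts were 0 in each of the 7 tables outside blood vessel cells, 4 in endothelial cells and 7 in pericytes. The mean in place of the median gave 0.048 in endothelial cells and -0.59 in pericytes, and leaving out the netrin-G genes gave a pericyte median of -0.67. Leaving out Unc50, an alternative added after seeing the data, kept the values of the table named Other close. Counts of nuclei per table are not analysed here, so the precision of single values is unknown.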
